A study of Mus musculus with 6 samples.

Results

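The canonical Wnt pathway genes examined here were Wnt10b, Lrp5, Lrp6, Dkk2, Ctnnb1, Axin2, Lef1, Tcf7, Tcf7l1 and Tcf7l2, and the measurement was the occupancy of Lsd1 on chromatin around them. A peak of Lsd1 was counted for a gene when its centre lay within the span of the gene's curated RefSeq transcripts on mm10 or within 10 kb of either end. The windows of the 10 genes held 56 of the 43426 peaks in myogenic medium, 33 of 18893 in adipogenic medium and 47 of 33533 in LSD1(OE) cells in adipogenic medium. Peaks of the 3 lists that overlapped by at least 1 bp were merged, which gave 73 regions at the 10 genes among 56729 in the genome.

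In canonical Wnt signalling, a secreted Wnt ligand binds a Frizzled receptor and the co-receptors Lrp5 and Lrp6, and secreted antagonists of the Dkk family bind those co-receptors. Without ligand, a destruction complex built on Axin proteins marks β-catenin, the product of Ctnnb1, for degradation. With ligand, β-catenin accumulates, enters the nucleus and joins the DNA-binding TCF/LEF factors, which Lef1, Tcf7, Tcf7l1 and Tcf7l2 encode. Wnt10b is known as an inhibitor of adipogenesis in preadipocytes, and Wnt signals favour the myogenic over the adipogenic fate in myoblasts. Lsd1 is a histone demethylase that removes methyl groups from lysine 4 and, in some settings, lysine 9 of histone H3.

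C2C12 cells, an immortalised mouse myoblast line, were examined on day 1 of differentiation under 3 conditions, with 1 Lsd1 ChIP library and 1 input library each. Wild-type cells in myogenic medium received 2% horse serum. Wild-type cells in adipogenic medium received 10% FCS with isobutylmethylxanthine, indomethacin, dexamethasone, insulin, T3 and rosiglitazone. LSD1(OE) cells received the same adipogenic medium and carried Flag-tagged LSD1 under a doxycycline-inducible promoter, delivered by lentivirus and followed by G418 selection. Doxycycline was given before and throughout differentiation, so the level of LSD1, the selected line and doxycycline cannot be told apart. The antibody was raised against Lsd1 itself and recovers the endogenous and the introduced protein together. No condition was replicated, so every difference below is a difference between libraries, no p-value was computed for it, and its intervals cover counting error only. No expression was measured in these libraries, so the identity of the cells could not be checked against marker genes.

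The ChIP libraries held 46155625, 63915769 and 55193310 tags after the duplicate limit, in the order myogenic, adipogenic and LSD1(OE), which is kept wherever 3 values follow each other below. Peaks took up 7.12%, 3.20% and 5.28% of those tags, so the adipogenic library was the deepest and had the smallest share of its tags in peaks. How far the adipogenic list is shorter for that reason was not tested. The score of a peak is 10 times the −log10 p of the peak caller, and the lists start at a score of 50. ChIP tags were multiplied by 1.90, 1.28 and 1.82 before scoring, and scores rise with depth and with the length of a peak, so they are read here against the other peaks of the same list, as a percentile. Levels were compared across libraries as tag density, the tags in a peak per kb and per 1000000 ChIP tags. The length was that of the peak as called in each library, so a density ratio compares unlike stretches where the lengths differ. The median density over all peaks was 1.22, 1.14 and 1.13, and the mean of the mappable genome was 0.535. Positions are given from the transcription start site (TSS), with negative values upstream.

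Lsd1 peaks stood at all 10 genes in myogenic medium, at 8 in adipogenic medium and again at all 10 in LSD1(OE) cells. The genes without an adipogenic peak were Dkk2 and Axin2. Of all 26180 genes, 62.5%, 41.2% and 53.9% had a peak in their window. The members are long, with a median span of 98.4 kb against 13.5 kb over all genes, and 9 of them span 25 to 200 kb. Among the 7948 genes of that span, 75.7%, 52.0% and 66.2% had a peak. A peak within 2000 bp of a TSS, called a promoter peak here, was present at 9, 6 and 9 members, against 46.8%, 27.0% and 37.3% of all genes. In myogenic medium the exception was Tcf7, and in LSD1(OE) cells it was Axin2. In adipogenic medium Dkk2, Axin2, Tcf7 and Tcf7l2 had no promoter peak.

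**Figure D1:**
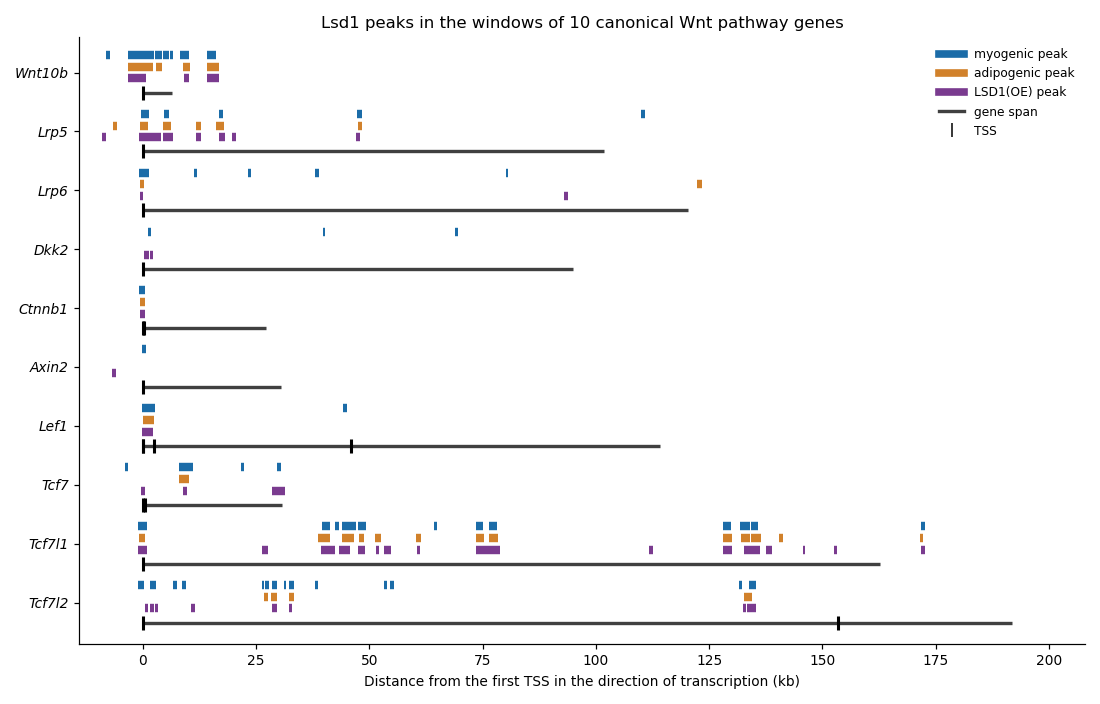
Lsd1 peaks at the 10 genes, drawn to scale by distance from the first TSS in kb, with 1 row of bars per library, the gene span as a dark line and TSSs as ticks. Peaks recur in the same places of Tcf7l1 in all 3 libraries, while Ctnnb1 holds a peak only at its start.

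Most peaks lay within the genes. Introns held 41, 23 and 33 of the peak centres, and promoter peaks numbered 10, 6 and 10. A TSS of another gene was nearer than any TSS of the member for 22, 11 and 19 peaks, and the neighbours are named below. The number of peaks differed widely among the members, from 1 in each library at Ctnnb1 to 13, 14 and 18 at Tcf7l1. The median number per member was 5, 1.5 and 2.5, against 1, 0 and 1 over all genes and 2, 1 and 1 over the genes of 25 to 200 kb. The order of the libraries by number of peaks changed with lists of equal length: with the strongest 18893 peaks of each, the members held 28, 33 and 26. It was kept with an FDR of at most 0.1%, at 29, 20 and 21, and with a score of at least 100, at 31, 21 and 26. With each score divided by the factor that scaled ChIP tags up to the input, 25, 3 and 20 of the member peaks fell under 50. No peak was scored again, so these counts are approximate. The share of all peaks was not computed, so the counts are not read as a trait of the members. The median score of the member peaks was 158.5, 164 and 111, against 122, 112 and 116 over all peaks.

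Wnt10b, the ligand, lies at chr15:98771752-98778150 on the minus strand and carried the Lsd1 peak with the highest score of any member in each library. The peak covered the TSS and extended upstream, with a length of 5739 bp in myogenic medium, 5560 bp in adipogenic medium and 3802 bp in LSD1(OE) cells. By length it stood at percentiles 99.9, 99.8 and 98.8 of the lists. The summits of the peak stood at -2349, -2136 and -2068 bp, so it is a promoter peak by its centre and not by its summit. The peak held 524 tags in myogenic medium, a density of 1.98 (95% interval 1.81 to 2.16), with a score of 2108 at percentile 99.6 of that list. In adipogenic medium it held 611 tags, a density of 1.72 (1.59 to 1.86), at percentile 99.3. In LSD1(OE) cells it held 363 tags, a density of 1.73 (1.56 to 1.92), at percentile 98.7. Other member peaks had a higher density in myogenic medium, up to 2.26 at the start of the neighbouring gene Arf3. In LSD1(OE) cells the highest density of a member peak was 1.97, at the Tcf7l1 promoter. By score, Wnt10b was thus near the top of every list. Its density was lower in adipogenic than in myogenic medium by a log2 ratio of -0.20 (-0.37 to -0.03) and the median over all regions that the lists share was -0.33, within that interval. Between LSD1(OE) and adipogenic wild-type cells the ratio was 0.01 (-0.18 to 0.20), over peaks of 3802 and 5560 bp. The interval does not cover that difference in length.

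The 201 bases around the summit in LSD1(OE) cells are shown because they hold a TCF/LEF core, the motif that the DNA-binding factors of the pathway recognise. They are mm10 chr15:98780118-98780318, plus strand, with the core on the minus strand in capitals, centred at -2004 bp. The summits of the wild-type libraries lie further upstream, and their 201-base windows hold no such core.
Wnt10b upstream region: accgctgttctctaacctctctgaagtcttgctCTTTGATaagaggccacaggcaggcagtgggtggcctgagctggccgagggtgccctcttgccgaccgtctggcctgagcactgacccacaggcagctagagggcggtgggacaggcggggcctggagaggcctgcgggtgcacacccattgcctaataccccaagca

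Beyond that region, the body of Wnt10b held weaker peaks in myogenic medium, with scores of 89.6 in intron 3, 203 in intron 4 and 90.8 in the last exon. Of these, the peak in intron 3 recurred in adipogenic medium with a score of 86.1, and none did in LSD1(OE) cells. Downstream of the gene, peaks 9.23 and 15.4 kb from the TSS were present in all 3 libraries, both nearer to the TSS of Arf3, a small GTPase gene. The farther of the pair covers the start of Arf3, with its centre 1.5, 259 and 320.5 bp from the Arf3 TSS. Its densities were 2.26 (1.97 to 2.57), 1.50 (1.32 to 1.70) and 1.58 (1.39 to 1.80), highest in myogenic medium. A further myogenic peak upstream, with a score of 73.2, was nearer to the TSS of Wnt1, another Wnt ligand gene.

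Lrp5, a co-receptor gene at chr19:3584825-3686564 on the minus strand, had 5, 6 and 7 peaks, and 4 of its 9 regions were in all 3 lists. Its promoter peak had densities of 1.44 (1.20 to 1.73), 1.32 (1.13 to 1.55) and 1.39 (1.25 to 1.54), which overlap in their intervals. The LSD1(OE) peak there was 4922 bp long and reached percentile 97.5 of its list, against 1786 and 1878 bp and percentiles 82.0 and 84.7 in the wild-type libraries. The densities of the promoter peak are thus over unlike lengths. A second region in intron 1, 5.55 kb into the gene, had densities of 1.63, 1.65 and 1.82. The next shared regions, at 17.2 kb in intron 1 and at 47.7 kb in intron 5, had densities of 1.33, 1.35 and 1.01 and of 1.26, 1.23 and 1.17. None of the 4 shared regions of Lrp5 thus differed between adipogenic and myogenic medium beyond the counting interval, with log2 ratios from -0.12 to 0.02. A region at 12.3 kb was in the adipogenic and LSD1(OE) lists, with scores of 141 and 102, and not in the myogenic list. A myogenic peak beyond the 3′ end, with a score of 179, lay 472 bp from the TSS of Ppp6r3.

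Lrp6, the other co-receptor gene, lies at chr6:134446476-134566913 on the minus strand and shared only its promoter region among the lists. The region held 157 tags in myogenic medium, a density of 1.54 (1.31 to 1.80) at percentile 89.4. In adipogenic medium it held 68 tags, a density of 1.07 (0.829 to 1.35) at percentile 33.1. In LSD1(OE) cells it held 34 tags, a density of 1.02 (0.709 to 1.43) at percentile 16.7. The myogenic density was the highest, and the log2 ratio of adipogenic to myogenic medium was -0.53 (-0.96 to -0.11). That interval includes the median of -0.33 over all shared regions. The remaining Lrp6 peaks were weak and were each in a single list, with scores from 51.2 to 93.6 at 4 places in myogenic medium, 66.1 beyond the 3′ end in adipogenic medium and 117 in intron 12 in LSD1(OE) cells. The myogenic peak in exon 8, that beyond the 3′ end and that in intron 12 were nearer to the TSS of Bcl2l14.

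The summits of the promoter region stood at -454, -429 and -380 bp, within 74 bp of each other. The window of each of the 3 summits holds the same TCF/LEF core, centred at -439 bp. The 201 bases around the myogenic summit, mm10 chr6:134567267-134567467, plus strand, are shown with the core in capitals.
Lrp6 promoter: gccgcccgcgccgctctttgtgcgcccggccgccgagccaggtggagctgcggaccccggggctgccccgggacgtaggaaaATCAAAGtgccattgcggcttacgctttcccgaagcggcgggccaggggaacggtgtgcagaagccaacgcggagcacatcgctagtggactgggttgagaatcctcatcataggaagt

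Dkk2, a secreted antagonist gene at chr3:132085292-132180304 on the plus strand, had weak peaks throughout. In myogenic medium its 3 peaks, all in intron 1, held 28 to 30 tags and scored 50.7 to 60.3, close to the lower limit of the list. Adipogenic medium had none. In LSD1(OE) cells, 2 promoter peaks held 60 and 37 tags, at 799 and 1935 bp from the TSS, with scores of 123 and 58.3. The Dkk2 signal thus reached percentile 52.5 of a list at most, and no region of it was shared by all 3.

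Ctnnb1, the β-catenin gene at chr9:120933400-120960507 on the plus strand, held exactly 1 peak in each library, over its start. The peak held 130 tags in myogenic medium, a density of 2.19 (1.83 to 2.60) at percentile 93.6. In adipogenic medium it held 94 tags, a density of 1.41 (1.14 to 1.73) at percentile 74.6, and in LSD1(OE) cells 108 tags, a density of 1.76 (1.44 to 2.13) at percentile 88.2. Adipogenic medium had the lowest level, with a log2 ratio to myogenic medium of -0.63 (-1.03 to -0.24). The median of -0.33 over all shared regions lies within that interval. LSD1(OE) cells stood between the wild-type libraries, 0.32 (-0.10 to 0.73) above adipogenic wild-type cells. The last interval includes 0, so that difference was within counting error.

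The Ctnnb1 summits stood at -178, -167 and -175 bp, within 11 bp of each other, the tightest agreement among the shared regions of the members. The sequence around the myogenic summit, mm10 chr9:120933122-120933322, plus strand, is shown because all 3 lists centre on it. It has a GC content of 71.1% with 22 CpG dinucleotides, and it holds none of the 4 motifs searched, so no letter is in capitals.
Ctnnb1 upstream region: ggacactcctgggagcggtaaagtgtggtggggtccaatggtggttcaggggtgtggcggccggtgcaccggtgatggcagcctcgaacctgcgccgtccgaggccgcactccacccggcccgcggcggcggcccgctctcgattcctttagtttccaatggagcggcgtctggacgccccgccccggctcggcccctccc

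Axin2 encodes a scaffold of the destruction complex and is a widely used direct target of Wnt signalling. At chr11:108920349-108950783 on the plus strand, it had a promoter peak only in myogenic medium, with 48 tags (35.4 to 63.6), a density of 1.15 (0.845 to 1.52) and a score of 105 at percentile 45.4. Adipogenic medium had no peak in the window. LSD1(OE) cells had a single peak at -6350 bp, with 41 tags and a score of 53.8. The adipogenic list could hardly have shown the promoter peak: the myogenic density lowered by the median ratio of all shared regions is 0.913, and no called adipogenic peak of similar length was below 0.926. Its absence there was therefore not detectable as a loss at this depth. In LSD1(OE) cells the same calculation gave 1.01 against a lowest called density of 0.894, so a peak that followed the other regions would have been in reach of the list. A TCF/LEF core lies in the first exon, centred 81 bp downstream of the TSS and 85 bases before the myogenic summit. The site is mm10 chr11:108920417-108920443, plus strand, with the core in capitals.
Axin2 first exon: gccggctgcgCTTTGATaaggtcctgg

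Lef1, at chr3:131110297-131224357 on the plus strand, encodes a TCF/LEF factor that acts mostly as an activator with β-catenin. A region over its first exon was in all 3 lists. It held 248 tags in myogenic medium, a density of 1.85 (1.63 to 2.09) at percentile 97.6. It held 231 tags in adipogenic medium, a density of 1.39 (1.22 to 1.58) at percentile 94.5, and 197 tags in LSD1(OE) cells, a density of 1.36 (1.18 to 1.56) at percentile 90.9. The level was thus highest in myogenic medium, and the log2 ratios to it were -0.41 (-0.68 to -0.15) for adipogenic medium and -0.44 (-0.72 to -0.17) for LSD1(OE) cells. Each interval includes the median over all shared regions of its comparison, -0.33 and -0.19. Between the LSD1(OE) and adipogenic libraries the ratio was -0.03 (-0.31 to 0.25), within counting error. The 3 summits lay up to 1482 bp apart. The myogenic summit, at -278 bp from the third of its TSSs, is flanked by a pair of CAGCTG E-boxes, the form of E-box that MyoD and other myogenic factors bind. They are in capitals in mm10 chr3:131112413-131112613, plus strand. A second Lef1 peak, with a score of 82.8 and upstream of the most distal TSS, was in the myogenic list alone.
Lef1 start region: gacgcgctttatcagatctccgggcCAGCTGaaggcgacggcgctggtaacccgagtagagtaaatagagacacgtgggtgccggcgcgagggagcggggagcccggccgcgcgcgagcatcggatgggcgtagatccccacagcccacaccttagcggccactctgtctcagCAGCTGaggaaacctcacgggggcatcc

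Tcf7, at chr11:52252283-52283014 on the minus strand, encodes the TCF-1 factor. Its main region lay in intron 3, 9.11 kb from the TSS, and not at the promoter. It held 198 tags in myogenic medium, a density of 1.77 (1.53 to 2.03) at percentile 95.2. It held 167 tags in adipogenic medium, a density of 1.19 (1.01 to 1.38) at percentile 60.9, and 48 tags in LSD1(OE) cells, a density of 0.983 (0.725 to 1.30) at percentile 17.7. The level thus fell from the upper end of the myogenic list to the lower end of the LSD1(OE) list. The log2 ratio of LSD1(OE) to myogenic cells was -0.85 (-1.33 to -0.39), the lowest of any shared region of the members in any comparison. At the promoter, only LSD1(OE) cells had a peak, with 48 tags and a score of 75.7. At the 3′ end of Tcf7, peaks in myogenic medium (score 174) and LSD1(OE) cells (362 and 97.2) lay nearer to the TSS of Skp1, a ubiquitin ligase subunit gene, at 20344 to 21739 bp from it.

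Tcf7l1, at chr6:72626371-72789045 on the minus strand, encodes the TCF-3 factor, known mainly as a repressor of Wnt targets. It held 13 of the 56 peaks in myogenic medium, 14 of the 33 in adipogenic medium, 18 of the 47 in LSD1(OE) cells and 21 of the 73 regions. As at Lrp5 and Ctnnb1, its number of peaks was not lower in adipogenic than in myogenic medium. By number of peaks it stood at percentiles 98.9, 99.9 and 99.7 of all genes, and its span at percentile 95.1. Of its regions, 9 were in all 3 lists. Of these, 7 lay in intron 3, in groups 40.5 to 48.3 kb, 74.8 to 77.5 kb and 129 to 134 kb from the TSS, and the last group was nearer to the noncoding gene Gm15401 within the window. The remaining shared regions were the promoter and a peak beyond the 3′ end, 221.5, 128.5 and 124.5 bp from the TSS of Tgoln1.

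The Tcf7l1 promoter held 181 tags in myogenic medium, a density of 1.97 (1.69 to 2.27). It held 105 tags in adipogenic medium, a density of 1.21 (0.993 to 1.47), and 214 tags in LSD1(OE) cells, again a density of 1.97 (1.71 to 2.25). Its percentiles were 95.9, 67.6 and 97.2. The adipogenic library was thus the low one, and the intervals of the others did not overlap it. The log2 ratio of LSD1(OE) to adipogenic cells was 0.70 (0.35 to 1.05), and that of LSD1(OE) to myogenic cells was 0.00 (-0.29 to 0.29).

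In intron 3 the region 77.5 kb from the TSS had densities of 1.92 (1.64 to 2.25), 1.56 (1.34 to 1.80) and 1.90 (1.68 to 2.14). The region at 40.5 kb had 2.07, 1.51 and 1.62, and that at 45.3 kb had 1.42, 1.41 and 1.43. At 134 kb the densities were 1.58, 1.42 and 1.85. The regions of intron 3 thus did not move alike: that at 45.3 kb was level across the libraries, while that at 40.5 kb was highest in myogenic medium. In LSD1(OE) cells, a further 7 regions of Tcf7l1 were in that list alone. The strongest of them, at 54.0 kb, had a score of 286, and the others scored 53.1 to 127. The sequence around the LSD1(OE) summit of the region at 77.5 kb, mm10 chr6:72711888-72712088, plus strand, is shown as the Tcf7l1 peak with the highest score in that list. Its capitals mark a CAGCTG E-box at 77138 bp from the TSS.
Tcf7l1 intron 3: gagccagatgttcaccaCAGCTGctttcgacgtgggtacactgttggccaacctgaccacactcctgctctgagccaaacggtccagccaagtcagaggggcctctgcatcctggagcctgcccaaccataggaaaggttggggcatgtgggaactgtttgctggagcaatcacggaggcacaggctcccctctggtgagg

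Tcf7l2, at chr19:55741810-55933655 on the plus strand, encodes the TCF-4 factor and is the longest member. It had 14, 4 and 8 peaks, the widest difference in number between the wild-type libraries. The promoter peak at -408.5 bp was in the myogenic list alone, with 101 tags, a density of 1.70 (1.38 to 2.06) and a score of 408 at percentile 84.0. This was the strongest of all member regions that were in a single list. The myogenic density lowered by the median ratio of shared regions would be 1.35 for the adipogenic and 1.49 for the LSD1(OE) library, and both lists held peaks of similar length down to 0.863 and 0.894. Here, in contrast to Axin2, a peak that followed the other regions would have been in reach. LSD1(OE) cells had instead a weak peak at 794 bp, with a score of 53.0. Whether that difference is larger than the spread between replicates cannot be told from 1 library per condition.

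The 3 shared Tcf7l2 regions lay in introns 3 and 4. That at 28.9 kb had densities of 1.68 (1.34 to 2.07), 1.18 (0.959 to 1.45) and 1.19 (0.927 to 1.51). The region at 32.7 kb had 1.60 (1.26 to 2.00), 1.08 (0.850 to 1.35) and 1.02 (0.735 to 1.39), and that in intron 4 had 1.48, 1.11 and 1.20. All 3 were highest in myogenic medium, and their log2 ratios of adipogenic to myogenic medium ran from -0.57 to -0.42. The counting interval of each included the median of -0.33 over all shared regions. The region at 32.7 kb is shown around its adipogenic summit, mm10 chr19:55774295-55774495, plus strand, because that window holds an E-box and an AP-1 site, both in capitals. Many peaks of intron 3 were nearer to the noncoding gene Gm31734 than to a Tcf7l2 TSS, as were all LSD1(OE) peaks at the start of the gene.
Tcf7l2 intron 3: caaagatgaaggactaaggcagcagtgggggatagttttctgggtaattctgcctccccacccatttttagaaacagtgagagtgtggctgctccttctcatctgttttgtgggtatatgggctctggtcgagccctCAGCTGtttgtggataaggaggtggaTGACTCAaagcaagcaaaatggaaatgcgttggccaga

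**Figure D2:**
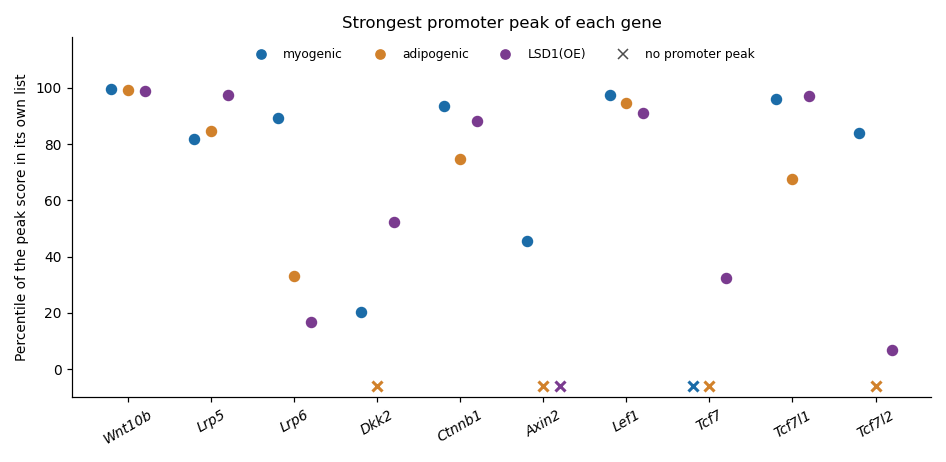
Percentile of the strongest promoter peak of each member among all peaks of the same list by score, with 1 point per library and a cross below 0 where the list holds no promoter peak. Wnt10b, whose peak is a promoter peak by its centre and not by its summit, lies at percentile 98.7 or above in each library. Lrp6 runs from percentile 89.4 in the myogenic list to 16.7 in the LSD1(OE) list.

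Of the 73 regions, 23 (31.5%) had a peak in all 3 libraries, against 20.6% of all 56729 regions. Tcf7l1 held 9 of them, and without Tcf7l1 the share was 14 of 52 (26.9%). The myogenic list alone held 25 regions (34.2%, against 35.9% of all regions), the LSD1(OE) list alone 14 (19.2% against 20.8%) and the adipogenic list alone 3. A further 2 regions (2.74% against 4.38%) were shared by the wild-type libraries only, 3 (4.11% against 12.2%) by myogenic and LSD1(OE) cells, and 3 (4.11% against 2.45%) by the libraries in adipogenic medium. Beside the genome, the members thus had a larger share of regions in all 3 lists, also without Tcf7l1, and a smaller share in the myogenic and LSD1(OE) lists only, on small counts and with no test. The regions of the genome include those outside gene windows, and the shares within the windows of all genes were not computed.

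Regions in a single list were weak and shared regions were strong. In myogenic medium the median score was 65.7 for the regions in that list alone and 439 for those in all 3, and over the whole genome the same medians were 72.1 and 388. In LSD1(OE) cells they were 67.0 and 527, and in adipogenic medium 66.1 and 195. Of the 42 member regions without an adipogenic peak, 29 had a density elsewhere that, moved by the median ratio of shared regions, fell below the lowest called adipogenic density among peaks of similar length. The same held for 8 of the 30 regions without an LSD1(OE) peak and for 0 of the 20 without a myogenic peak. A missing adipogenic peak was thus, in most member regions, not distinguishable from a signal below the reach of that list. The median ratio came only from regions that both lists held. These counts were not made over all regions, so they are not read as a trait of the members.

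At the 25 regions shared by the wild-type libraries, the density was lower in adipogenic medium at 23, with a median log2 ratio of -0.33 and a range from -0.70 to 0.02. Over all 14149 such regions the median was also -0.33. The density was over 1.5 times lower at 3 member regions, among 17.6% of all regions, and over 1.5 times higher at 0, among 0.0495%. The 3 regions were the promoters of Tcf7l1 and Ctnnb1 and the region at the start of Arf3 in the Wnt10b window. The lower adipogenic level of the members was thus close to that of the genome, where the quartiles of the ratio were -0.52 and -0.14. The counting interval lay wholly below 0 at 11 member regions. It lay wholly below the median of all regions at 1 and wholly above that median at 1.

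Between LSD1(OE) and adipogenic wild-type cells, the 26 shared regions had a median log2 ratio of 0.07, against 0.13 over 13053 regions. The density was over 1.5 times higher at 1 of them, the Tcf7l1 promoter, among 2.91% of all regions, and over 1.5 times lower at 0, among 0.0919%. Tcf7l1 was singled out here after its values were seen. Its 11 regions had a median of 0.13, with 1 below 0, and the 15 regions of the other members had a median of -0.03. Tcf7l1 was thus at the median of the genome, and the other members were below it.

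Against myogenic medium, LSD1(OE) cells had a median log2 ratio of -0.25 over 26 member regions and -0.19 over 18581 regions. The density was over 1.5 times lower at 3 member regions, among 8.95% of all regions, and over 1.5 times higher at 0, among 0.511%. The 3 were the region in intron 3 of Tcf7, that of Tcf7l2 at 32.7 kb and the Lrp6 promoter. The median was 0.00 at 9 regions of Tcf7l1 and -0.40 at the 17 of the other members. The comparisons share libraries and are not independent of each other.

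**Figure D3:**
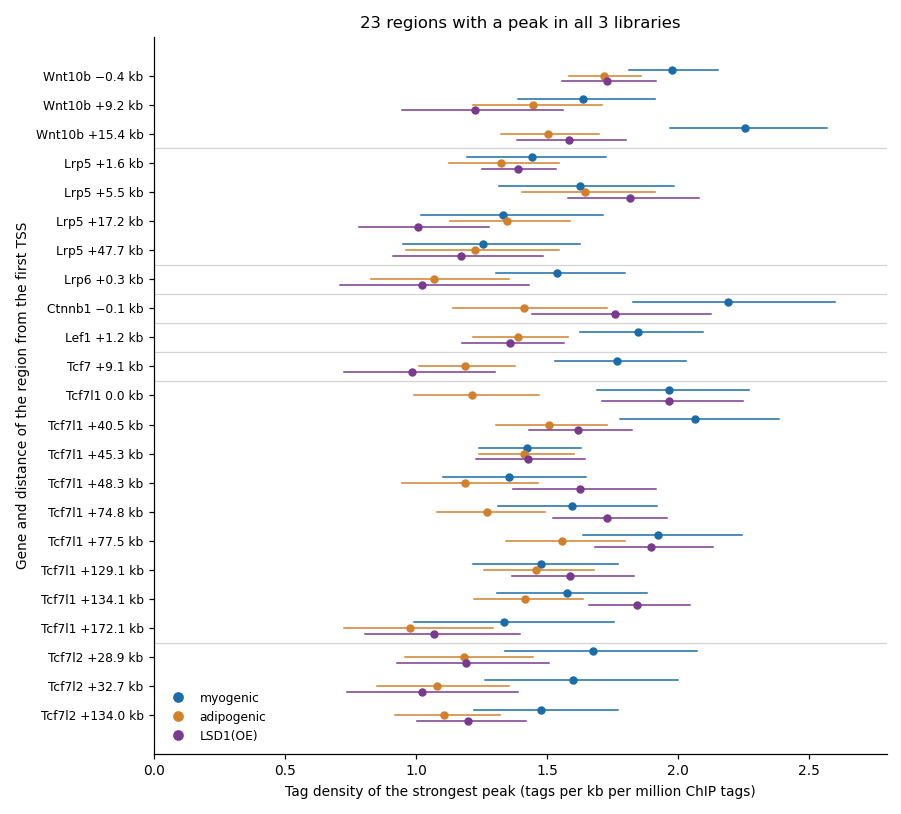
Tag density in tags per kb per 1000000 ChIP tags at the 23 regions with a peak in all 3 libraries, with points for the strongest peak of a library in the region and lines for its exact 95% Poisson interval. The myogenic point is well above the others at Lef1, Tcf7 and the Tcf7l2 regions, and the adipogenic point is the low one at the Tcf7l1 promoter.

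**Figure D4:**
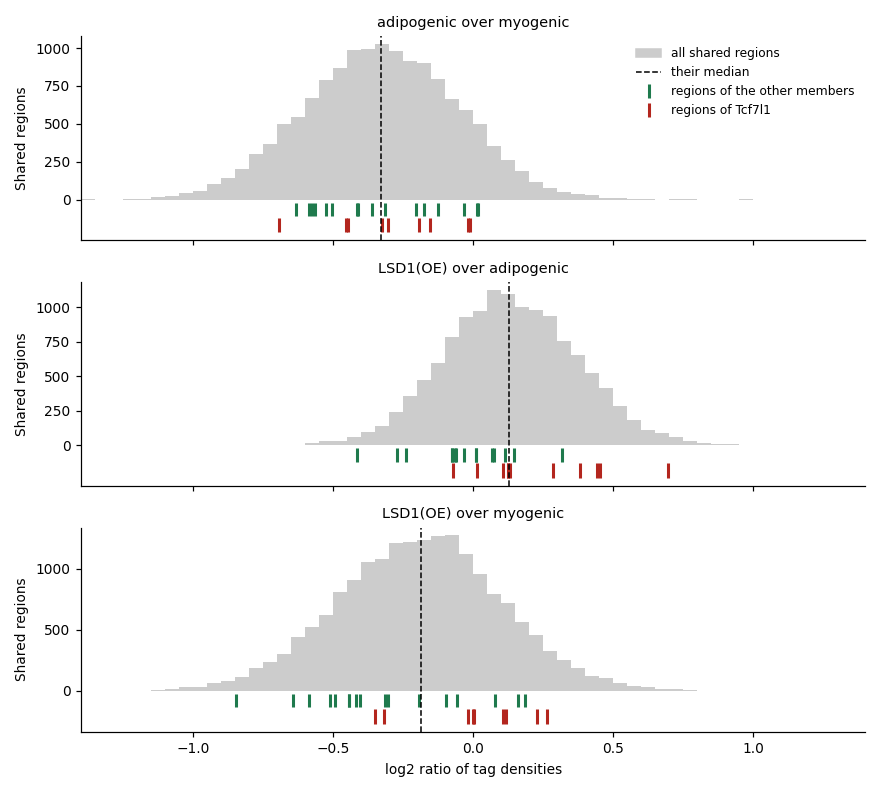
Number of shared regions by log2 ratio of tag density for each pair of libraries, with the median of all shared regions as a dashed line and member regions as ticks below the axis. Between LSD1(OE) and myogenic cells the regions of Tcf7l1 lie around 0 and most others lie below the median of -0.19.

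Per length of gene window, the members held 51.8 (39.2 to 67.3), 30.5 (21.0 to 42.9) and 43.5 (32.0 to 57.8) peaks per Mb, with exact 95% Poisson intervals that treat peaks as independent counts. Over all genes there were 25.1, 11.3 and 19.2. Tcf7l1 alone had 71.2, 76.6 and 98.5 per Mb, and without it the members had 47.9 (34.7 to 64.5), 21.2 (12.7 to 33.0) and 32.3 (21.6 to 46.4). The members thus had more peaks per length than the windows of all genes in each library, also without Tcf7l1. Nearby peaks are not independent, and the members were chosen with these data known.

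**Figure D5:**
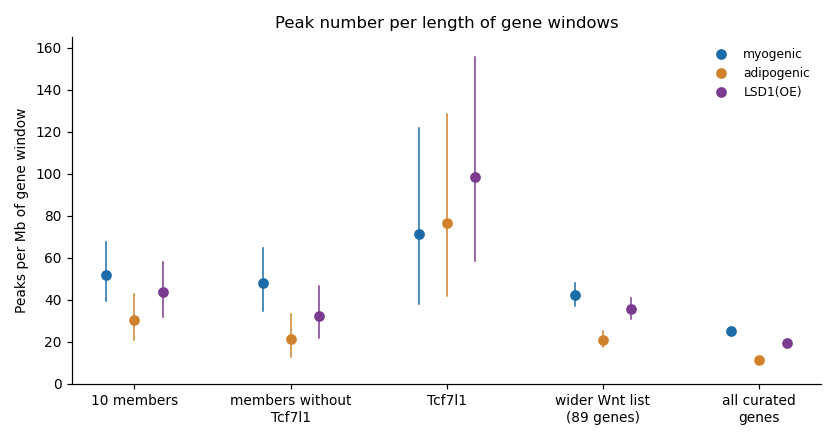
Peaks per Mb of gene window for the 10 members, the members without Tcf7l1, Tcf7l1, the list of 89 further Wnt pathway genes and all curated genes, with 1 point per library and its exact 95% Poisson interval as a line. Tcf7l1 has its lowest value in myogenic medium, while each other set has its lowest in adipogenic medium.

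Sequences of 201 bases around every summit were searched on both strands for 4 motifs, and no motif overlapped another in the windows printed above. The TCF/LEF core ATCAAAG was in 2 of 56, 1 of 33 and 3 of 47 member windows, or 3.57%, 3.03% and 6.38%, against 2.14%, 2.09% and 2.07% of all peaks. These windows were those of the Lrp6 promoter in each library, Axin2 in myogenic medium, and Wnt10b and the start of Tcf7l2 in LSD1(OE) cells. The E-box CAGCTG was in 14.3%, 21.2% and 17.0% of member windows and in 19.3%, 22.0% and 19.2% of all. The AP-1 site TGACTCA was in 10.7%, 9.09% and 2.13%, against 11.0%, 12.03% and 10.4%. The C/EBP palindrome TTGCGCAA was in none of the member windows and in 0.0599%, 0.132% and 0.0954% of all windows. With counts this small, no share of the members is set apart from that of all peaks.

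RefSeq promoters of 300 bases were matched by symbol for 8 of the members, 14 promoters in all, and none of them held the TCF/LEF core, which is in 3.73% of 32851 promoters. An E-box was in 2 of the 14, at the third TSS of Lef1 and the upstream TSS of Tcf7, against 16.3% of all.

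Beyond the 10 members, a wider list of 89 further Wnt pathway genes, which holds none of them, was examined by role. Promoter peaks were present at 61, 40 and 49 of the 89, or 68.5%, 44.9% and 55.1%, against 46.8%, 27.0% and 37.3% of all genes. All 3 libraries had one at 38 genes, and 26 genes had none. At 21 genes the myogenic list had a promoter peak and the adipogenic list had none, and the reverse was found at 0. The myogenic list is the longer, with 43426 peaks against 18893. These overlaps were not counted over all genes, so they are not read as a trait of the Wnt genes. Every listed gene with an adipogenic promoter peak thus also had a myogenic one, a count of genes and not of peaks. Receptors and genes of receptor turnover had promoter peaks at 14, 11 and 10 of 16 genes, and cytoplasmic transducers and destruction complex genes at 16, 10 and 14 of 18. Nuclear cofactors and corepressors had them at 11, 7 and 8 of 12. Ligands had them at 8, 4 and 7 of 18, and extracellular inhibitors at 6, 4 and 5 of 15. The shares were thus 44.4%, 22.2% and 38.9% for ligands and 40%, 26.7% and 33.3% for extracellular inhibitors, near those of all genes, and differences between the groups were not tested.

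The gene with the highest score in each role was named. Among ligands this was Wnt9a, with scores of 3100, 2282 and 2215. Among extracellular inhibitors it was Notum, a secreted Wnt deacylase, with 372, 595 and 2120. Ryk, a Wnt receptor, had 328, 377 and 1538, and Tle1, a Groucho-type corepressor of TCF factors, had 1935, 483 and 2213. Gsk3a, a kinase of the GSK3 family, had 1915, 695 and 930, and Myc, a target of the pathway, had 2655, 968 and 699. In the role of ligand secretion it was Porcn, with 282, 217 and 828, at a peak nearer to the TSS of Ebp. Each gene was picked for its highest score in any library, and these scores are not on a common scale across the libraries, so no order among the libraries is read from them.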

How the data were processed

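Lsd1 ChIP-seq of C2C12 cells comprised 1 ChIP and 1 input library for each of 3 conditions, grouped by the sample labels. Reads of 50 bp were mapped to mm10 by the authors, who ran MACS 1.4.2 on each ChIP library with its matching input and a p limit of 1e-05. Adipogenic induction lasted 2 days in the paper's methods and 3 days in the labels.

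Each peak of the deposited lists has a tag count taken after duplicates were limited, a score of 10 times −log10 p, a fold enrichment over the local background and an FDR in percent. The deposited fold enrichment was not compared between libraries, because its scale differs among them, and the peak positions are repeated in the deposited BED lists. All deposited peaks had an FDR under 1%.

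Gene spans and 31647 TSSs of 26180 genes came from curated RefSeq transcripts of GRCm38.p6 (mm10). The members and the wider list were chosen with earlier results of these data known. All 10 members were named, and of the wider list the gene with the highest score in each role. Density was computed per kb and per 1000000 filtered ChIP tags from the strongest peak of a region. Tag intervals are exact Poisson and ratio intervals exact binomial, at 95%. The lowest density in reach of a list was taken from peaks within 20% of the length of the region's strongest peak, a calculation added after the data had been seen. Sequences were read from the same assembly. The steps were tested on simulated data. Alternatives were a stricter FDR, a higher score limit, equal peak numbers, unscaled tags, summits, other annotations, other windows, other overlaps and other density scales. Python 3.11.15, NumPy 2.4.6, pandas 2.3.3, SciPy 1.17.1, pysam 0.24.0 and matplotlib 3.10.9 were used.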

Additional observations from a re-analysis of the deposited data

How the results depend on the processing

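Of 121 recomputed values of 13 results, 105 stayed within 1.5 times the count or within the counting interval of the ratio, 16 moved and 0 reversed. The number of members with a peak and the number of regions in all 3 lists were among the former under every alternative run. The number of peaks in the windows moved most. With an FDR of at most 0.1% it was 29, 20 and 21 (myogenic, adipogenic, LSD1(OE)), and with a score of at least 100 it was 31, 21 and 26. With the strongest 18893 peaks of each list it was 28, 33 and 26, which turns the order of the wild-type libraries. With unscaled tags, approximated by dividing each score by the scaling factor of its library, it was 31, 30 and 27. With peaks nearest to a TSS of the member alone it was 34 in myogenic medium and 28 in LSD1(OE) cells. At the stricter FDR, 5 members kept a promoter peak in LSD1(OE) cells. The median log2 density ratio at regions with a score of at least 100 in both lists was -0.25 for adipogenic over myogenic medium and -0.057 for LSD1(OE) over myogenic cells, and the latter was -0.092 when tags were not divided by length. The causes were not tested, beyond the fewer peaks that stricter limits leave by construction. The smallest peaks held 27, 35 and 30 tags, which limits what these libraries can show. No paired analysis was possible because each condition had a single library and no result came from a test.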
